A study of Mus musculus with 6 samples.

Results

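Genes of heterotrimeric G protein, RGS and cyclic nucleotide signalling were examined in sorted mouse cones in which the clock gene Bmal1 was knocked out or kept in 1 intact copy. The rule that chose them reads gene symbols and no measured value, and it was written with earlier results of these data known. The symbol patterns covered G protein alpha, beta and gamma subunits, RGS proteins, adenylyl cyclases, cyclic nucleotide phosphodiesterases, G protein-coupled receptor kinases, beta-arrestins, the kinases PKA and PKG, Rapgef exchange factors, and dopamine and adenosine receptors. They matched 60 genes, from which 12 were set aside, all but 1 of them genes of the visual cascade, of its shutoff or of the handling of its proteins and the remaining one Gng13, a gamma subunit gene of bipolar cells. This left 48 genes of the 9720 in the table. The symbol pattern also took in Pde4dip, which encodes myomegalin, a centrosomal protein that binds a phosphodiesterase and is not an enzyme itself. No PKG gene, no adenosine receptor gene and no dopamine receptor gene other than Drd4 was among the 48.

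The knockout libraries came from mice of genotype HRGPcre;Bmal1f/f;Z/EG and the control libraries from mice of genotype HRGPcre;Bmal1f/+;Z/EG, with 3 libraries in each group. Both groups therefore carried HRGPcre, in which the human red-green pigment promoter drives Cre in cones, and the Z/EG reporter, which turns on eGFP after Cre has acted. Control cones, with 1 floxed copy, were not wild type. Arntl, the gene of BMAL1, read 3.37, 2.28 and 3.48 FPKM in knockout and 2.9998, 2.60 and 3.27 FPKM in control libraries, so its whole-gene level did not separate the groups and does not check the genotype labels. The strain is labelled C57BL/6 with a mixed background, the age as postnatal day 60 to 80 and also as 2 to 6 months, and the light cycle was 12 h light to 12 h dark. The labels state neither the hour of sampling nor how many animals went into a library. The p-values therefore set the difference between groups against the spread among libraries of a group, which may be partly technical. In bulk RNA of sorted cells, fewer cells of a type and less RNA per cell cannot be told apart.

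Heterotrimeric G proteins carry signals from membrane receptors. The activated receptor makes the alpha subunit release GDP and bind GTP, the beta-gamma pair separates from it, and RGS proteins speed the return to the resting state. Alpha subunits of the Gs class stimulate adenylyl cyclases and those of the Gi class inhibit them, phosphodiesterases break cyclic nucleotides down, and PKA and the exchange factor EPAC respond to cAMP. In photoreceptors the visual cascade is itself a G protein pathway that acts on cGMP, while dopamine, acting on D4 receptors, lowers cAMP. BMAL1 acts with a partner at the E-box, a short DNA element.

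The values are FPKM, that is, fragment numbers corrected for transcript length and library size, so levels can be compared between genes per unit of transcript length. The FPKM summed to 102059, 102224 and 106900 in knockouts 1 to 3 and to 84995, 106807 and 128773 in controls 1 to 3, and the depth is unknown. All 10 cone markers looked for were present, with a summed level of 5359 to 6454 FPKM in knockout and 3906 to 6710 FPKM in control libraries. Among them Opn1sw was apart, at 1774 to 2091 FPKM in knockout and 735 to 1202 FPKM in control libraries, and the others overlapped. The 8 rod markers in the table that are not among the 48 genes summed to 1366 to 1673 FPKM in knockout and to 1333 to 1653 FPKM in control libraries. Of these rod markers Reep6, Cnga1 and Nr2e3 were higher in every knockout than in every control library, and the others overlapped. Reep6 read 142 to 179 FPKM in knockout and 97.3 to 134 FPKM in control libraries. Control 1 stood apart, with the lowest mean correlation to the other libraries (0.899, against 0.929 to 0.946 for the other 5) and with the ganglion cell marker Stmn2 at 21.1 FPKM, against 0.10 to 0.668 FPKM in the other 5. In control 3, which had the highest sum, 1 gene (Gm17364) held 10.03% of the FPKM, against 2.35% to 2.88% in knockout libraries and a leading gene at 1.49% and 2.45% in controls 1 and 2. The 2 of 8 amacrine markers in the table summed to 5.01 to 8.15 FPKM in knockout and 8.98 to 11.2 FPKM in control libraries, and the 3 of 7 ganglion cell markers to 2.07 to 2.32 FPKM in knockout and 2.63 to 23.9 FPKM in control libraries. The 1 vascular marker in the table, Pecam1, read 1.23 to 1.30 FPKM in knockout and 0.593 to 0.812 FPKM in control libraries, and the 1 red blood cell marker, Alas2, 3.06 to 5.29 FPKM in knockout and 1.48 to 2.93 FPKM in control libraries. The 5 of 7 Mueller glia markers summed to 97.5 to 108 FPKM in knockout and 88.2 to 116 FPKM in control libraries, among them Apoe at 1.78 to 3.002 FPKM in knockout and 3.70 to 4.64 FPKM in control, and Clu at 15.4 to 21.1 FPKM in knockout and 24.8 to 27.1 FPKM in control. The rest of these Mueller glia markers overlapped between groups. On average Car2 read 60.8 FPKM in knockout and 54.3 FPKM in control, Glul 18.6 and 17.2 FPKM, and Rlbp1 2.01 and 2.19 FPKM. No marker passed the test used below, and the part of these cells in the differences below was not tested.

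Of the 48 genes, 2 had a mean above 100 FPKM over the 6 libraries, 7 lay between 20 and 100 FPKM, 17 between 5 and 20 FPKM, 17 between 1 and 5 FPKM and 5 below 1 FPKM. Their median was 5.76 FPKM, and that of all genes in the table was 3.79 FPKM. The 2 leading genes, Gnat1 and Gngt1, are the alpha and gamma subunits of rod transducin. Together the 48 genes held 1.18% to 1.35% of the summed FPKM in knockout and 1.23% to 1.55% in control libraries.

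**Figure D1:**
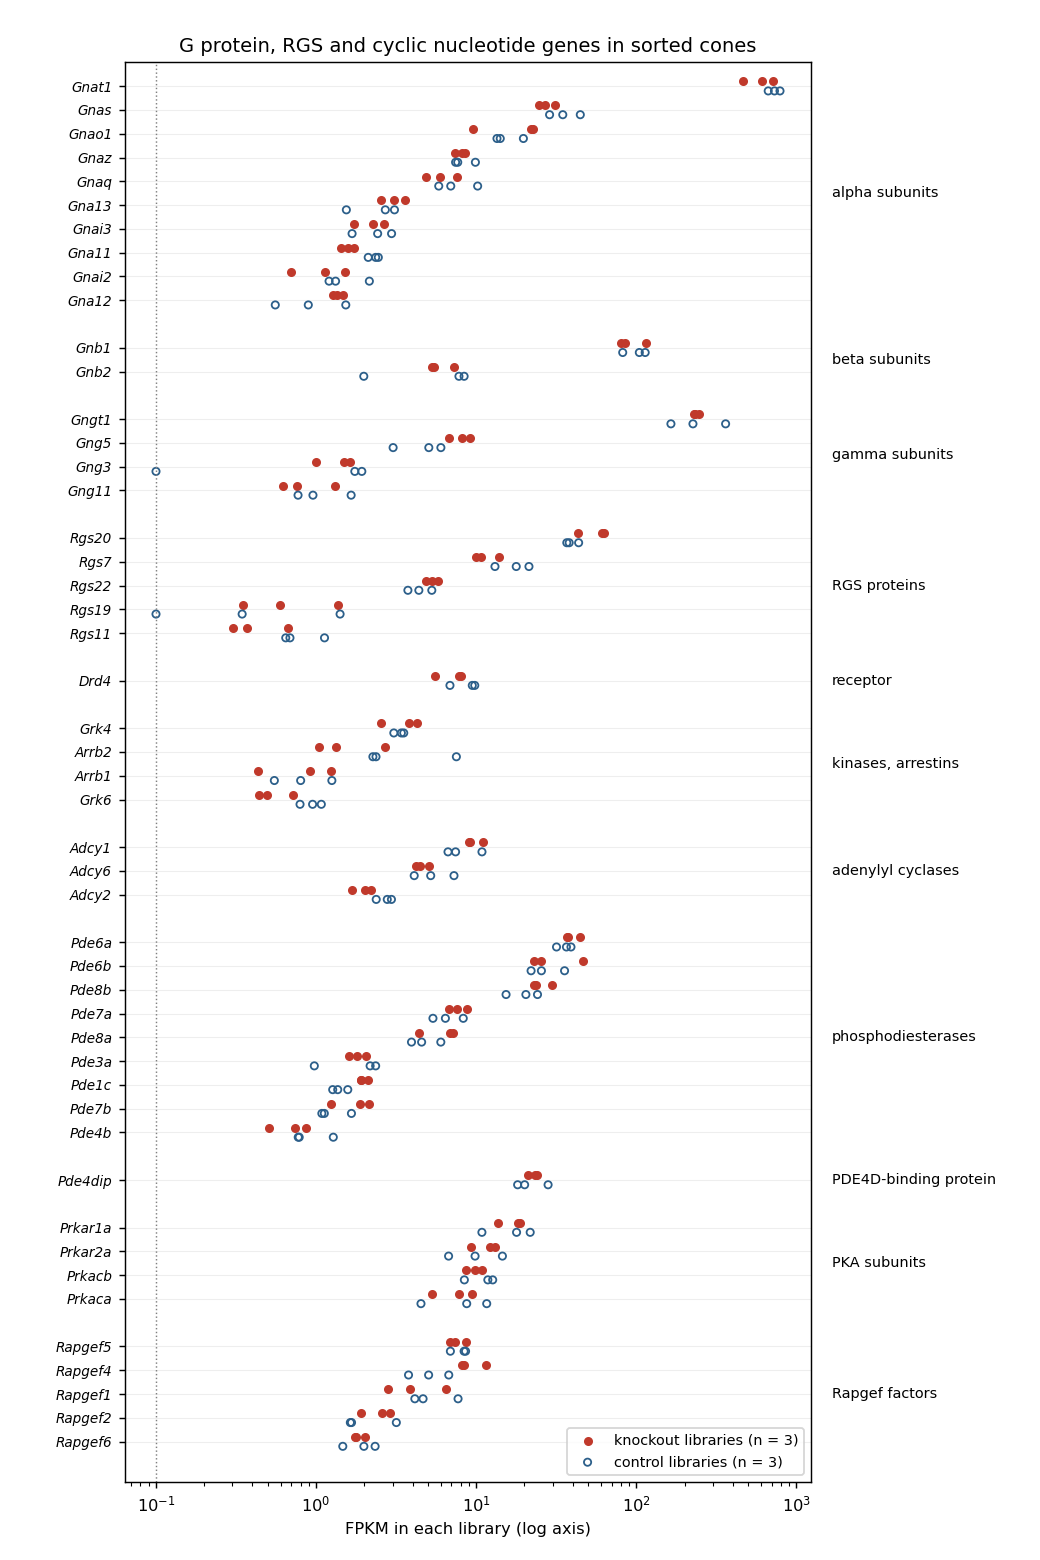
FPKM of each of the 48 genes in each library, on a log axis, grouped by role, with filled points for the 3 knockout and open points for the 3 control libraries. The dotted line marks 0.1 FPKM, the lowest value in the table. Gnat1 and Gngt1 lie farthest to the right, followed by Gnb1, and for most genes the points of the groups lie over each other.

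Knockout and control were compared with limma on log2(FPKM + 1), a scale that understates the change of genes near 1 FPKM, for genes averaging 1 FPKM or more over the 6 libraries. Of the 48 genes 43 were tested, and none passed an adjusted p of 0.05 in either direction. Over all 8627 genes tested 9 passed, or 0.104%, made up of 0.0464% higher and 0.058% lower in the knockout. The smallest adjusted p among the 43 was 0.651 (limma). At an unadjusted p under 0.05 in limma there were 4 of the 43, Rapgef4 and Gng5 with higher and Rgs7 and Arrb2 with lower means in the knockout, which is 9.30% of the 43 beside 5.49% of all genes tested (1.53% higher and 3.96% lower). The groups were apart, with all 3 knockout values above or below all 3 control values, for 5 of the 43, Rapgef4, Gng5 and Pde1c being higher and Gna11 and Adcy2 lower in the knockout. That is 11.6% of the 43, and the same held for 9.39% of all genes tested (3.52% higher and 5.87% lower), so these counts alone do not set the members apart. The log2 difference was positive for 23 and negative for 20, with a median of 0.04, and over all genes tested the median was -0.02. Its size was over 0.5 for 4 of the 43 and for 8.84% of all genes tested. The 95% interval of a difference reached 0.53 to either side at the median over the 43 genes. Taken gene by gene, before adjustment, a smaller difference in a typical member could not be told from 0. After adjustment over all genes tested, larger differences were missed as well, such as 0.75 for Rapgef4 and -0.80 for Arrb2, which did not pass.

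**Figure D2:**
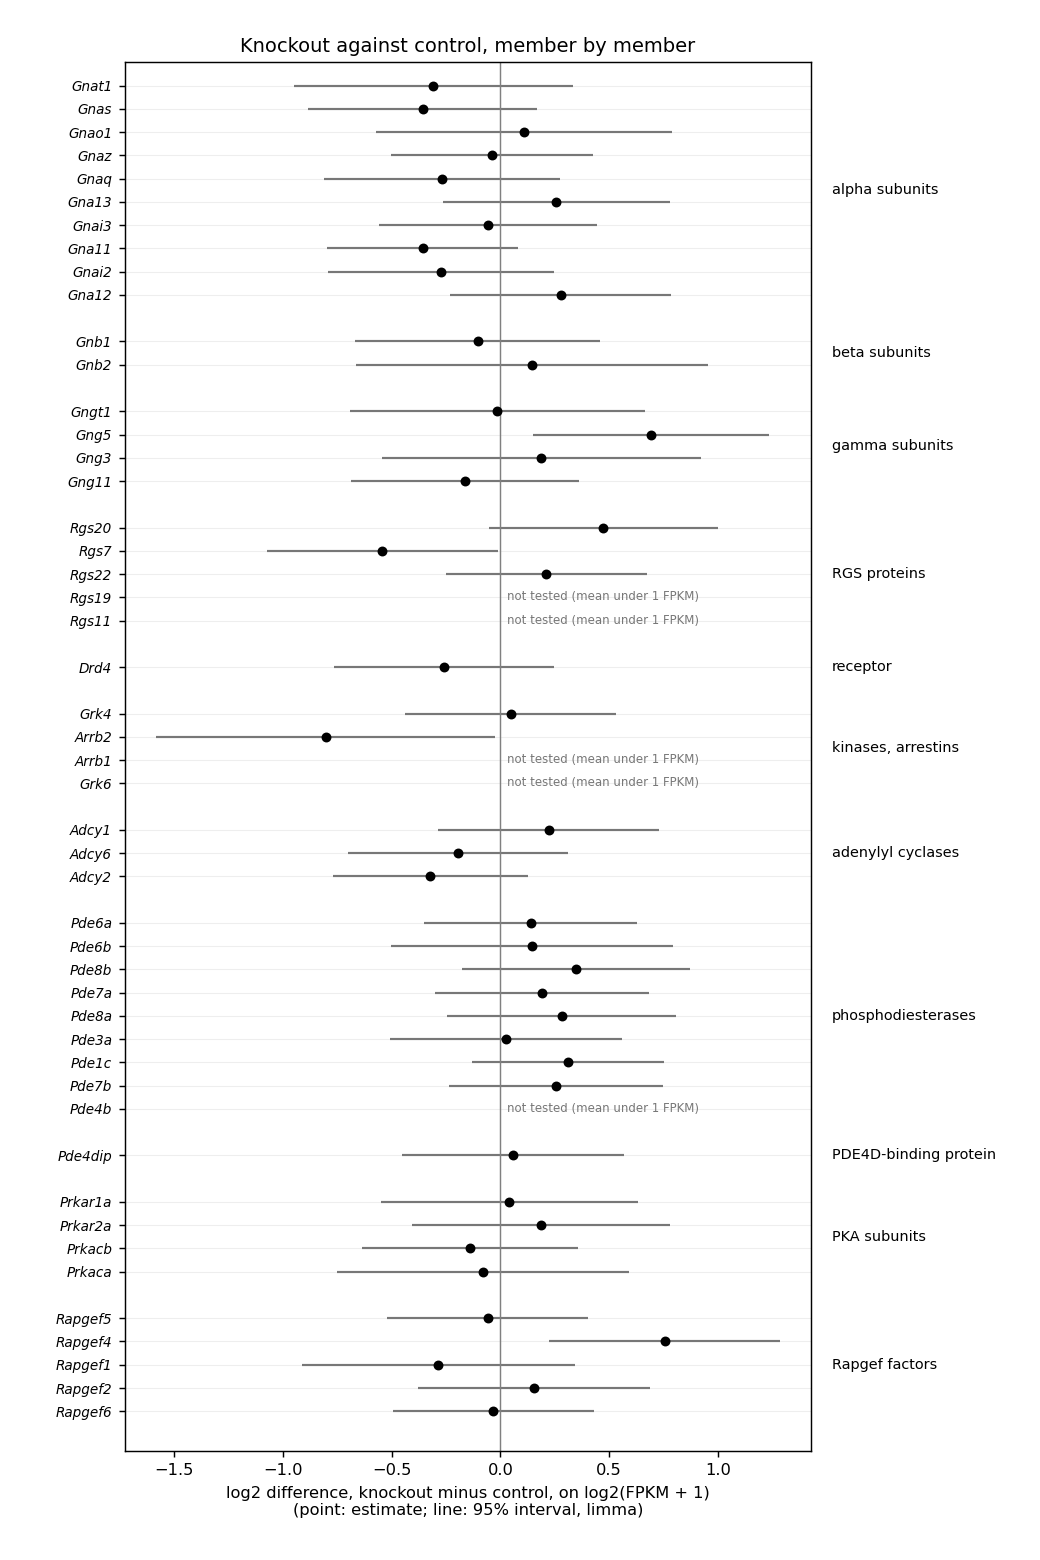
Log2 difference, knockout minus control, of each of the 43 tested genes with its 95% interval from limma, grouped by role. 5 genes with a mean under 1 FPKM were not tested. All intervals but those of Rapgef4, Gng5, Rgs7 and Arrb2 include 0, and none of the 43 passed after adjustment over 8627 genes.

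**Figure D3:**
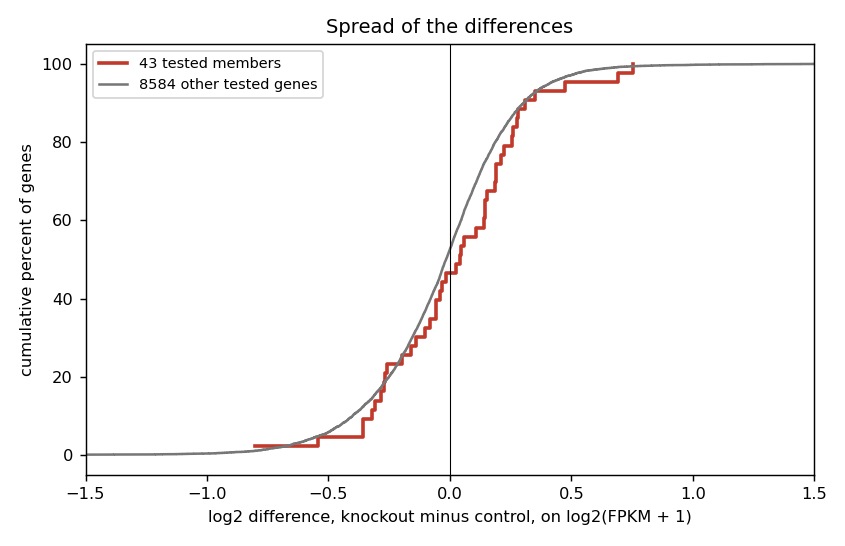
Cumulative percent of genes against the log2 difference, knockout minus control, for the 43 tested members and the 8584 other tested genes, shown from -1.5 to 1.5. The curves run close together and cross 0 near their middle, with medians of 0.04 for the members and -0.02 for the others.

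Alpha subunit genes kept as members were led by Gnat1. It read 465, 610 and 711 FPKM in knockouts 1 to 3, against 729, 666 and 789 FPKM in controls 1 to 3. The groups overlapped, and the log2 difference was -0.31 ± 0.29 (SE; adjusted p = 0.984, limma), or -0.14 without knockout 1. Its cone counterpart Gnat2 measured 968 FPKM in knockout and 1060 FPKM in control on average, and the ratio of Gnat1 to Gnat2 was 0.592 to 0.645 in the knockout libraries, against 0.573, 0.613 and 1.02 in controls 3, 2 and 1. Control 1 was thus the one library in which the rod gene matched the cone gene. The part that rods in the sort play in these levels was not tested.

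Gnas, which encodes the stimulatory alpha subunit of adenylyl cyclase, was the most abundant alpha gene after Gnat1 among the members. It measured 27.0, 24.6 and 31.2 FPKM in knockout libraries, against 34.7, 28.7 and 44.7 FPKM in control libraries. 2 of the 3 knockout values lay below every control value, and the difference did not pass (log2 difference -0.36, 95% interval -0.88 to 0.17, adjusted p = 0.934, limma). Without control 3 the log2 difference was -0.20. Exons of Gnas overlap those of Gm20721 by 1469 bp and of the antisense gene Nespas by 988 bp, both on the opposite strand. The labels do not say whether counting used strand, so reads of these genes may not be told apart.

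Gnao1 encodes the alpha subunit Go, abundant in neurons. It read 22.6, 21.9 and 9.51 FPKM in the knockout and 14.1, 13.5 and 19.7 FPKM in the control. Knockouts 1 and 2 were above and knockout 3 below every control, and the sign of the difference (log2 difference 0.11 ± 0.31) turned without knockout 1 and without knockout 2. Across control libraries Gnao1 held nearly the same share of the FPKM of alpha subunit members other than Gnat1, 20.3% to 20.4%. This share was 14.3% to 32.0% in knockout libraries. Bipolar cells are also rich in Go, and their markers summed to 95.7 to 108 FPKM over 8 genes in knockout and 83.7 to 120 FPKM in control libraries, with the ON bipolar marker Trpm1 at 1.25 to 7.06 FPKM over the 6 libraries, and their part in the result was not tested.

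Gna11, one of the pair of alpha subunits that activate phospholipase C, had groups that were apart. It measured 1.42, 1.59 and 1.73 FPKM in knockout libraries, below the 2.12, 2.36 and 2.45 FPKM of control libraries, and the control mean was 1.46-fold the knockout mean (log2 difference -0.36 ± 0.20, adjusted p = 0.911, limma). Its locus is chr10:81528724-81545190 (GRCm38, minus strand). Its close relative Gnaq averaged 6.12 ± 1.37 FPKM in knockout and 7.66 ± 2.27 FPKM in control (SD, n = 3 each), and the groups overlapped. Of the other alpha genes, Gnaz, whose product inhibits adenylyl cyclase, averaged 8.03 FPKM in knockout and 8.32 FPKM in control, and Gna13, Gnai3, Gnai2 and Gna12 averaged 0.994 to 3.06 FPKM in either group. Over the 10 alpha genes 7 had a negative and 3 a positive difference, none of which passed, and the split was 5 and 5 without control 3.

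Beta subunit genes kept as members were Gnb1 and Gnb2, the first of which encodes the partner of rod transducin alpha. Gnb3 and Gnb5 were set aside by the symbol rule. Gnb3 averaged 203 FPKM in knockout and 240 FPKM in control, and Gnb5 averaged 29.7 FPKM in knockout and 26.5 FPKM in control. Gnb1 averaged 93.3 ± 19.2 FPKM in knockout and 100.01 ± 16.1 FPKM in control, with overlapping groups (log2 difference -0.10 ± 0.26). Gnb2 read 5.41, 5.29 and 7.27 FPKM in the knockout, against 1.98, 7.80 and 8.40 FPKM in controls 1 to 3. Control 1 was below and the other 2 controls were above every knockout library, and the log2 difference of 0.14 became -0.39 without control 1. Exons of Gnb2 overlap those of Epo by 104 bp on the same strand.

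Gngt2, the cone gamma subunit gene, was set aside by the symbol rule and averaged 1002 FPKM in knockout and 1211 FPKM in control. Among the gamma subunit genes kept as members, the rod gene Gngt1 took 95.4% to 97.7% of their summed FPKM in each library. It read 245, 231 and 230 FPKM in knockout and 164, 361 and 226 FPKM in control libraries, so the knockout values fell inside the range of the controls (log2 difference -0.01 ± 0.31). Gng5, a gamma subunit made in many tissues, measured 9.16, 8.13 and 6.79 FPKM in the knockout, all above the 3.03, 6.01 and 5.06 FPKM of controls 1 to 3. The knockout mean was 1.71-fold the control mean, the log2 difference was 0.69 (95% interval 0.15 to 1.24), and it did not pass over all genes (adjusted p = 0.784, limma). Without control 1, the lowest library, the log2 difference was 0.46. The Gng5 locus is chr3:146499807-146505572 (GRCm38, plus strand). Gng3, a neuronal gamma gene, stood at the floor of 0.10 FPKM in control 1 and between 0.999 and 1.93 FPKM in the other 5 libraries, and Gng11 measured 0.620 to 1.65 FPKM over all 6.

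**Figure D4:**
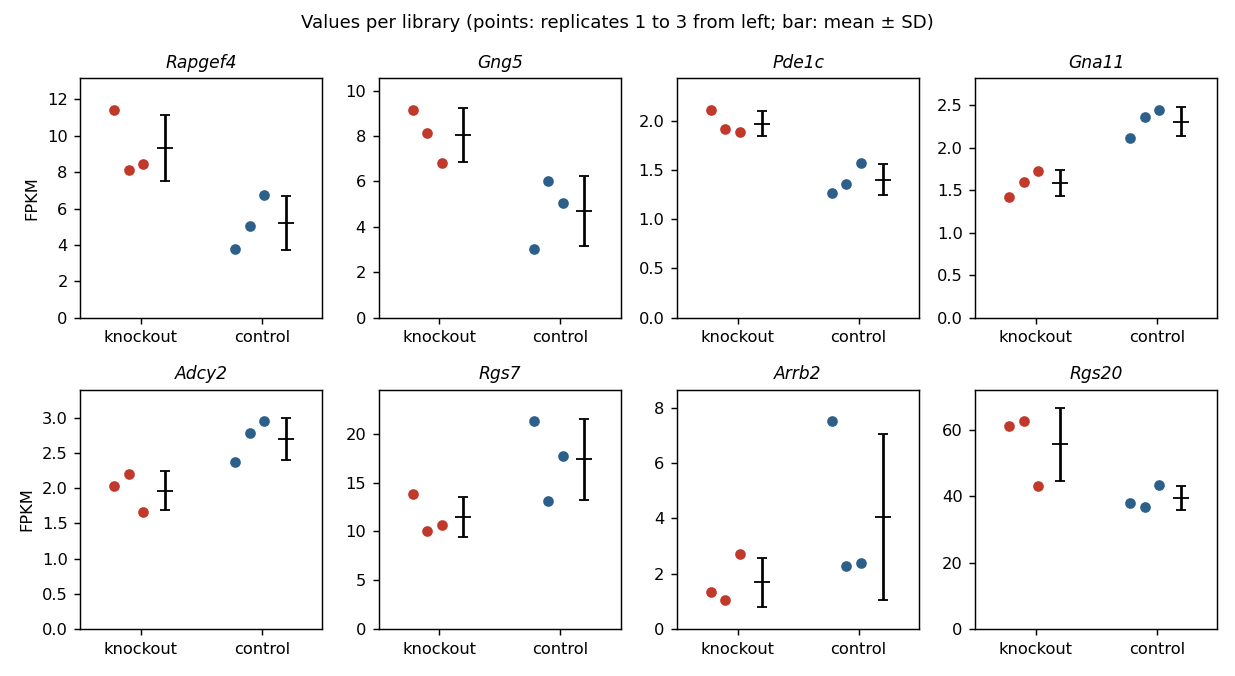
FPKM per library of 8 genes, knockout on the left and control on the right of each panel, with the mean ± SD (n = 3) beside the points. These are the 5 genes whose groups were apart, Rapgef4, Gng5, Pde1c, Gna11 and Adcy2, and 3 more that overlapped, Rgs7, Arrb2 and Rgs20. The high control point of Arrb2, at 7.51 FPKM, is control 1.

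RGS proteins speed GTP hydrolysis by alpha subunits. Rgs9 was set aside by the symbol rule and averaged 95.6 FPKM in knockout and 95.1 FPKM in control. Of the 5 kept as members, Rgs20, which has a preference for the alpha subunit encoded by Gnaz, was the most abundant. It read 61.3, 62.8 and 43.2 FPKM in knockout libraries, against 38.05, 36.8 and 43.6 FPKM in control libraries. Knockouts 1 and 2 lay above every control and knockout 3 among the controls (log2 difference 0.47, 95% interval -0.05 to 0.998, adjusted p = 0.900, limma). Its exons overlap those of Atp6v1h by 127 bp on the opposite strand. Rgs7, which works in a complex with the beta subunit Gnb5 and regulates Go in ON bipolar cells, measured 13.9, 10.03 and 10.7 FPKM in knockout and 21.3, 13.1 and 17.8 FPKM in control libraries. Knockout 1 exceeded control 2, so the groups overlapped by these 2 libraries. Control means were 1.51-fold the knockout means, and the log2 difference was -0.54 (95% interval -1.07 to -0.01, adjusted p = 0.897, limma) and -0.39 without control 1. The Rgs7 locus is chr1:175059087-175492500 (GRCm38, minus strand).

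Of the remaining RGS genes, Rgs22 averaged 5.30 ± 0.46 FPKM in knockout and 4.47 ± 0.77 FPKM in control (SD, n = 3 each), with overlapping groups. Rgs11, a relative of Rgs7 in ON bipolar cells, had a mean below 1 FPKM and was not tested. It read 0.665, 0.368 and 0.302 FPKM in the knockout and 1.13, 0.686 and 0.646 FPKM in the control, which overlap by knockout 1 and control 3. Beside them, the bipolar markers summed as given for Gnao1, and the part of bipolar cells in the Rgs7 and Rgs11 levels was not tested. Rgs19 was not tested for a difference either, and spanned 0.348 to 1.38 FPKM in knockout and 0.10 to 1.41 FPKM in control libraries. As a share of the FPKM summed over the 5 RGS genes, without Rgs9, Rgs20 held 71.0% to 79.9% in knockout and 57.7% to 66.5% in control libraries. Rgs7 held 12.8% to 17.6% in knockout and 23.7% to 32.4% in control libraries. Neither pair of ranges overlapped. These shares were chosen after their values were seen, they are tied to each other and to the levels above, and they are given without a test.

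Drd4, the gene of the D4 dopamine receptor, was the sole receptor gene of the 48. It read 5.55, 7.80 and 7.99 FPKM in knockout libraries, against 6.85, 9.79 and 9.45 FPKM in control libraries. Knockout 1 was the lowest of all libraries, the other 2 knockouts lay between control 1 and the other controls, and the log2 difference was -0.26 ± 0.23 (95% interval -0.76 to 0.25, adjusted p = 0.980, limma). The Drd4 locus is chr7:141292006-141296464 (GRCm38, plus strand), and its level was above that of 72.8% of genes in the table. The sign was the same in all 17 alternative settings, with log2 differences from -0.40 without control 1 to -0.11 without knockout 1.

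Receptor kinases and beta-arrestins end receptor signalling, and those kept as members were low throughout. Of those kept, Grk4 was the most abundant by the mean over the 6 libraries. It averaged 3.53 ± 0.90 FPKM in knockout and 3.33 ± 0.24 FPKM in control (SD, n = 3 each), with overlapping groups. Arrb2, which encodes beta-arrestin 2, read 1.34, 1.04 and 2.70 FPKM in knockouts 1 to 3, against 7.51, 2.26 and 2.37 FPKM in controls 1 to 3. Control 1 alone was far above the rest, and knockout 3 exceeded the other 2 controls. The log2 difference of -0.80 ± 0.36 (adjusted p = 0.897, limma) was -0.35 without control 1. That library also had the highest level of the amacrine marker Pax6, 6.65 FPKM against 0.684 to 2.22 FPKM in the other 5, and of the ganglion cell markers Stmn2 and Rbpms. The amacrine marker Slc6a9 went the other way, at 4.58 FPKM in control 1 against 8.29 and 7.03 FPKM in controls 2 and 3. So did the ganglion cell marker Nefl, at 0.890 FPKM against 2.21 and 1.16 FPKM. The part of other cell types in the Arrb2 level was not tested. Arrb1 and Grk6 had means below 1 FPKM and were not tested. Grk6 measured 0.496, 0.721 and 0.438 FPKM in the knockout, below the 1.08, 0.950 and 0.793 FPKM of the control, and Arrb1 overlapped between groups at 0.435 to 1.25 FPKM.

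Adenylyl cyclases make cAMP, and 3 of their genes were in the table. Adcy1, the calcium- and calmodulin-stimulated form that predominates in neurons, was the most abundant, at 8.99, 9.09 and 11.0 FPKM in knockout and 6.66, 7.43 and 10.9 FPKM in control libraries. The knockout values lay above controls 1 and 2 and around control 3, and the log2 difference was 0.22 (95% interval -0.29 to 0.73, adjusted p = 0.986, limma). Without control 1 the Adcy1 difference was 0.0934 and without control 3 it was 0.41. Without knockout 3 it was 0.13. The Adcy1 locus is chr11:7063489-7178506 (GRCm38, plus strand). Adcy2, a form stimulated by beta-gamma subunits, measured 2.03, 2.201 and 1.67 FPKM in the knockout, all below the 2.37, 2.78 and 2.95 FPKM of the control. The control mean was 1.38-fold the knockout mean and the log2 difference was -0.32 ± 0.21 (adjusted p = 0.934, limma). Adcy6, a form inhibited by calcium, averaged 4.59 ± 0.43 FPKM in knockout and 5.52 ± 1.61 FPKM in control, with overlapping groups. The summed cyclase level averaged 16.3 ± 0.97 FPKM in knockout and 16.5 ± 3.93 FPKM in control (SD, n = 3 each), whereas Adcy1 held 55.6% to 64.3% of it in knockout and 46.8% to 51.9% in control libraries.

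Sequences of promoter windows are given here because BMAL1 binds the E-box, spelled CACGTG on both strands, and because Adcy1 and Rgs7 are among the members with such letters. RefSeq windows of 300 bases (GRCm38.p6), from 250 bases before to 50 after a start site, were matched by symbol for 35 of the 48 genes, with 62 windows in all, since some genes have several starts. No window was used for Adcy6, Arrb1, Arrb2, Gnai2, Gnat1, Gnaz, Gng11, Pde3a, Pde6a, Pde7a, Rgs11, Rgs20 and Rgs22. CACGTG stood in 7 of the 62 windows, or 11.3%, against 7.15% of all 32851 windows and 10.2% of the 9556 windows of genes in the expression table. Counted by gene, it stood in 7 of the 35 members with a window, or 20%. The share by gene was 12.2% for genes in the expression table and 8.09% for all genes with a window. None of these shares was tested. Those 7 windows belong to 7 genes, each shown with 12 bases on either side, 5′ to 3′ on the strand of the gene, the E-box letters in capitals.
Adcy1 (chr11:7063252-7063281, plus strand): ggtgcccaaggtCACGTGgccccttgggcg
Rgs7 (chr1:175492557-175492586, minus strand): gcgtccctgtccCACGTGactgtcgcctcc
Rgs19 (chr2:181693784-181693813, minus strand): cagtgaccggtcCACGTGgatctaggtcgc
Gna13 (chr11:109362589-109362618, plus strand): cccagcctggccCACGTGacccgggctccg
Gnai3 (chr3:108146354-108146383, minus strand): tccagagcacacCACGTGctggaagtcccg
Prkaca (chr8:83972781-83972810, plus strand): ttctcggccaatCACGTGcgttcgcccgcc
Prkar1a (chr11:109650468-109650497, plus strand): accgaatcgtccCACGTGggtctgcggtag

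The motif began 169 bases before the start of Adcy1, 29 before that of Rgs7, 193 before that of Gna13, 219 before that of Gnai3, 185 before that of Prkaca and 62 before that of Prkar1a, and it lay just past the start of Rgs19. The log2 differences of the 6 tested genes were 0.22 for Adcy1, -0.54 for Rgs7, 0.26 for Gna13, -0.06 for Gnai3, -0.08 for Prkaca and 0.04 for Prkar1a, so they had no common sign and none passed. The windows of Drd4, Gng5 and Rapgef4 did not hold these letters. The cAMP response element TGACGTCA, which reads alike on both strands, stood in 2 overlapping windows of Prkar1a and in no window of another member. That is 3.23% of member windows, against 1.79% of all windows and 3.40% of the windows of genes in the expression table. A match describes letters and not a bound site. The 250 bases upstream of the start are printed for Adcy1, the leading cyclase, and Rgs7, the member with the E-box nearest upstream of its start, and no annotated exon of GENCODE vM21 falls in either stretch.
Adcy1 (chr11:7063183-7063432, plus strand): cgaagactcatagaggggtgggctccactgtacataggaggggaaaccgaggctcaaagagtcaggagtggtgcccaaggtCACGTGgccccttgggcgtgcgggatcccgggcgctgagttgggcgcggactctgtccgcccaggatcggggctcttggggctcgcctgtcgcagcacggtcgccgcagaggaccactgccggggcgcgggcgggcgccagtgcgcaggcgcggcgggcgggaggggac
Rgs7 (chr1:175492546-175492795, minus strand): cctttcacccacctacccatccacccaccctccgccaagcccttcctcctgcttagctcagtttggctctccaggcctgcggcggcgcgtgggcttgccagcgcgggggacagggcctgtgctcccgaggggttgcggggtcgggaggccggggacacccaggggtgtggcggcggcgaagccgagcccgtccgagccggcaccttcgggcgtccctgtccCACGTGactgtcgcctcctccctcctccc

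Phosphodiesterase genes numbered 9, of which 8 were tested. The catalytic subunits of the rod enzyme were the most abundant of the 9. Pde6a read 36.7, 37.5 and 44.2 FPKM in knockout and 36.6, 31.7 and 39.0 FPKM in control libraries. Pde6b read 46.6, 23.03 and 25.4 FPKM in knockout and 22.0, 25.5 and 35.6 FPKM in control libraries, and without knockout 1, its highest library, its log2 difference of 0.15 became -0.16. Without control 1 it became -0.00042. Both overlapped between groups. The ratio of their sum to cone Pde6c was 0.270 to 0.370 in knockout and 0.241 to 0.317 in control libraries.

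Outside vision, Pde8b led, which encodes a high-affinity cAMP phosphodiesterase. It measured 23.7, 29.7 and 23.0 FPKM in the knockout, against 24.1, 15.4 and 20.4 FPKM in the control. Control 1 lay within the knockout range and the other 2 controls below it (log2 difference 0.35, 95% interval -0.18 to 0.87, adjusted p = 0.934, limma). The log2 difference was 0.18 without control 2 and 0.55 with array weights. Of the FPKM of the 7 phosphodiesterase members other than Pde6a and Pde6b, Pde8b held 53.8% to 57.2% in knockout and 48.3% to 63.4% in control libraries. Its paralog Pde8a averaged 6.14 ± 1.53 FPKM in knockout and 4.84 ± 1.06 FPKM in control, and Pde7a, another cAMP-specific form, 7.71 ± 0.997 FPKM in knockout and 6.69 ± 1.48 FPKM in control (SD, n = 3 each).

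Pde1c, a form activated by calcium and calmodulin, had groups that were apart at a low level. It read 2.12, 1.92 and 1.89 FPKM in knockout libraries, above the 1.27, 1.36 and 1.58 FPKM of control libraries, a 1.41-fold difference of means (log2 difference 0.31 ± 0.20, adjusted p = 0.934, limma). Pde3a and Pde7b averaged 1.29 to 1.83 FPKM in either group, and Pde4b, below 1 FPKM on average, was not tested and spanned 0.510 to 0.860 FPKM in knockout and 0.773 to 1.28 FPKM in control libraries. The difference was positive for all 8 tested phosphodiesterase genes, with a median of 0.22, beside 47.4% positive among all genes tested, and none passed. The smallest was 0.02 for Pde3a, whose mean FPKM was slightly lower in the knockout, at 1.81 against 1.83 in control. The 4 tested PDE6 genes that the symbol rule sets aside all had negative differences, at -0.60 for Pde6h, -0.40 for Pde6g, -0.11 for Pde6d and -0.07 for Pde6c, so the shared sign holds for the members and not for all Pde genes in the table. With no filter on low values it held for 8 of 9 members. It was positive for 8 of 8 under each of the 3 rescalings of the libraries, for 7 of 8 with array weights, without knockout 1 or without knockout 3, and for 6 of 8 without control 1. Pde4dip, the centrosomal protein gene, averaged 22.7 ± 1.51 FPKM in knockout and 22.1 ± 5.28 FPKM in control (SD, n = 3 each).

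PKA consists of regulatory subunits that bind cAMP and catalytic subunits that they hold inactive. The regulatory gene Prkar1a was the most abundant of the 4 in the table and read 18.2, 13.6 and 18.7 FPKM in knockout, against 10.8, 17.9 and 21.7 FPKM in control libraries. The knockout values fell within the control range (log2 difference 0.04 ± 0.27). The other regulatory gene, Prkar2a, averaged 11.5 ± 1.95 FPKM in knockout and 10.4 ± 3.95 FPKM in control. The catalytic gene Prkacb averaged 9.78 ± 1.13 FPKM in knockout and 11.0 ± 2.24 FPKM in control. Prkaca, the second catalytic gene, averaged 7.48 ± 2.06 FPKM in knockout and 8.29 ± 3.57 FPKM in control (SD, n = 3 each), all 3 with overlapping groups and an adjusted p of 0.9996 in limma. The ratio of summed regulatory to summed catalytic FPKM was 1.82, 1.62 and 1.53 in knockouts and 1.08, 1.61 and 1.49 in controls, with control 1 the lowest.

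Rapgef genes encode exchange factors that activate Rap GTPases, and of the 5 in the table Rapgef4 encodes EPAC2, which binds cAMP directly. Rapgef4 had the smallest p of all 43 tested genes. It read 11.4, 8.11 and 8.45 FPKM in knockouts 1 to 3, against 3.78, 5.04 and 6.73 FPKM in controls 1 to 3. Every knockout library was above every control library, and the knockout mean was 1.80-fold the control mean. The log2 difference was 0.75 (95% interval 0.22 to 1.28) and did not pass over all genes (adjusted p = 0.651, limma). Over the 17 alternatives it stayed positive, between 0.58 and 0.93, with adjusted p-values from 0.221 with array weights to 0.9996 without knockout 2 (limma). The Rapgef4 locus is chr2:71981240-72257474 (GRCm38, plus strand), and its exons overlap those of the antisense gene Rapgef4os2 by 337 bp.

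The other 4 exchange factors had groups that overlapped. Rapgef5 averaged 7.60 ± 0.91 FPKM in knockout and 7.96 ± 0.92 FPKM in control, and Rapgef1 averaged 4.40 ± 1.89 FPKM in knockout and 5.50 ± 1.93 FPKM in control (SD, n = 3 each). Rapgef2 and Rapgef6 averaged 1.85 to 2.45 FPKM in either group. Rapgef4 held 31.4% to 44.3% of the summed Rapgef FPKM in knockout and 18.2% to 26.3% in control libraries. Over all families of at least 2 genes, 11 of 46 such shares had groups that were apart, 6 higher and 5 lower in the knockout. No such share was computed for other genes, so this count has no background.

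Other genes of these pathways were taken from a list of 74, of which 56 were in the table and 52 were tested. The list holds the genes set aside above, scaffolds and inhibitors of PKA, cAMP-responsive transcription factors, guanylyl cyclases, cyclic nucleotide-gated channels and Rap proteins. None passed in either direction in limma, 24 had a positive and 28 a negative log2 difference, and the median was -0.06. An unadjusted p under 0.05 was found for 4, or 7.69%, all 4 lower in the knockout, beside 5.49% of all genes tested (3.96% lower). Crtc2, a coactivator of the cAMP-responsive factor CREB, measured 2.99, 6.35 and 6.499 FPKM in knockout libraries, all below the 10.5, 7.53 and 8.31 FPKM of control libraries (log2 difference -0.69 ± 0.27, adjusted p = 0.893, limma). Gng13, the gamma subunit of ON bipolar cells, was also apart, at 2.16, 1.17 and 2.05 FPKM in the knockout and 6.31, 2.96 and 3.56 FPKM in the control (adjusted p = 0.605, limma). Cnga1, the rod channel gene, was apart upward, at 17.03 to 19.7 FPKM in knockout and 13.2 to 17.0 FPKM in control libraries. These 3, singled out after their values were seen, were the tested genes of the list whose groups did not overlap, which is 5.77% of the 52, below the 9.39% of all genes tested.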

How the data were processed

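RNA of 6 libraries of sorted cones was measured, per the labels' protocols, by directional poly(A) sequencing with an input of 100 ng. The values deposited by the authors are FPKM, in 1 table, with a lowest value of 0.1 FPKM. The submitters' processing notes list DESeq2, HTSeq, Cufflinks 2.2.1, TopHat2 2.1.0 and, as assembly, mm10, and do not say what each was used for. Library depth is unknown, as whole reads could not be recovered from the values, so no counting interval is given.

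Members and lists were chosen with earlier results of these data known. All 48 members matched GENCODE vM21 (GRCm38) by gene ID, 35 of them with the same ID version. Genes averaging 1 FPKM or more were compared as log2(FPKM + 1) with limma 3.58.1 in R 4.3.3 (two-sided, variances moderated with a trend). P-values were adjusted by the Benjamini-Hochberg method across the 8627 tested genes, and the threshold was 0.05. The fit was tested on simulated data. The alternatives changed the pseudocount, filter, scaling, variance model, library weights, replicate block or the libraries kept. The rule for genes named with full values takes, per role, the most abundant gene and the 2 of smallest p, then the rod members, and Drd4, Adcy1, Gnas, Gnao1 and Gnaq. Other members are given by means or ranges, except that Rgs11 and Grk6 were singled out after their values were seen. The software was pandas 2.3.3 with numpy 2.4.6 under Python 3.11.15, and figures were drawn with matplotlib 3.10.9.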

Additional observations from a re-analysis of the deposited data

How the results depend on the processing

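No member and none of the other pathway genes passed the threshold in any of the 17 alternatives. Over all genes tested 9 passed, 23 with array weights, and 6 to 13 when 1 library was left out. The count of members with groups apart was 5, or 2 with a filter at a mean of 5 FPKM, which leaves fewer members, and 6 to 13 without 1 library, where fewer libraries make separation easier. The median member difference of 0.04 ranged from 0.0064 to 0.074 over the 11 settings that kept all libraries and from -0.07 to 0.17 without 1 library. Of the 27 named members, 18 kept one sign in each setting in which they were tested, since the filter at 5 FPKM leaves some out. The size moved by over 1.5 times when 1 library was left out for Gnaq (-0.42 to -0.0668), Gnb1 (-0.27 to -0.0028), Pde6a (0.0567 to 0.20), Prkacb (-0.30 to -0.0341) and Rapgef1 (-0.55 to -0.0549). It also did so for Gnat1 (-0.45 to -0.14), Gnas (-0.51 to -0.20), Drd4 (-0.40 to -0.11) and Arrb2 (-1.06 to -0.35). The same held for Adcy1 (0.0934 to 0.41), Pde8b (0.18 to 0.49), Gng5 (0.46 to 0.86) and Gng11 (-0.28 to -0.0581). With all libraries kept, Gngt1 (-0.01) turned to 0.0085 with libraries rescaled to one sum, 0.0055 with median-ratio scaling and 0.0086 with quantile normalization. With array weights Gnb2 turned to -0.22, Gng11 to 0.0224, Prkar1a to -0.13 and Rapgef5 to 0.0472. The cause was not tested. Leaving out 1 library gave ranges across 0 for Gnao1 (-0.0919 to 0.49), Gnb2 (-0.39 to 0.44), Gngt1 (-0.28 to 0.29), Grk4 (-0.0708 to 0.22), Pde6b (-0.16 to 0.33), Prkar1a (-0.23 to 0.24), Prkar2a (-0.0642 to 0.44) and Rapgef5 (-0.15 to 0.0039). Deviations of same-numbered libraries from their group means correlated at -0.12, -0.09 and -0.03 across genes. For knockout and control libraries of unlike number the values ran from -0.04 to 0.10. A shift shared by number was thus not seen across genes. Whether same-numbered libraries were prepared together was not tested. With the replicate number as a block 6 genes passed over all genes, none of them a member, and the median member difference with the block was 0.04.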
